A study of Mus musculus with 18 samples.

Results

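WT bone marrow-derived macrophages (BMDMs) stimulated with LPS after pretreatment with defactinib were compared with unstimulated WT BMDMs. The comparison asked which part of the LPS response remained under the inhibitor, and which transcripts moved beyond their resting level. Its members were taken by their labels as the 3 LPS defactinib and the 3 unstimulated WT libraries, 6 of the 18 RNA-seq libraries of the series. The cells were mouse BMDMs kept with recombinant GM-CSF for 8 days. The LPS defactinib cells received defactinib at 3.5 µM for 1 h and then LPS at 100 ng/ml for 2 h. The unstimulated cells carry the labels DMSO and 0 h of LPS. The study's legend for these data also describes defactinib or DMSO control before LPS for 0 or 2 h. Their columns of counts are headed UT, and the study's text calls them untreated, so whether they received vehicle could not be settled. The 3 WT LPS DMSO libraries, from cells given vehicle and then the same LPS, served as the reference for the uninhibited response. The other 9 libraries were from IRF5 knockout cells and were not used for the values given here. No group of unstimulated cells with defactinib exists, so what the inhibitor did alone and what it did to the LPS response cannot be told apart. The study's methods give male C57BL/6J mice aged 8 to 11 weeks, without naming the mice behind these cultures. The study describes its replicates as biological, from mice or cells. The labels number them without naming an animal or culture, so p-values measure only the spread between these libraries.

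LPS is sensed on macrophages by Toll-like receptor 4 (TLR4) with its co-receptor CD14. The adaptors MyD88 and TIRAP lead from the receptor to NF-kB and MAP kinases, which switch on immediate-early transcription factors, cytokines and chemokines, and also their own inhibitors. The adaptors TRIF (Ticam1) and TRAM (Ticam2) lead to interferon-beta, which leaves the cell, binds its receptor and induces the interferon-stimulated genes through JAK-STAT signalling. Defactinib is an inhibitor of the tyrosine kinases PYK2 (Ptk2b) and FAK (Ptk2), which act beside integrins and Src family kinases, so the effects of inhibiting each kinase cannot be told apart.

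The 9 WT libraries held 41079773 to 53107546 counted read pairs. Levels are given in CPM, counts scaled by TMM factors to a common library total, in the order of replicates 1 to 3. Mitochondrial transcripts took 1.05% to 1.26% of the counts in the LPS defactinib libraries and 0.641% to 0.913% in the other WT libraries. The 10 most abundant genes took 13.7% to 15.7% of the counts in the LPS defactinib libraries, against 8.73% to 10.6% in the others. The summed level of the 43 macrophage genes tested was 27600 to 28100 CPM at rest, 28000 to 30200 CPM in LPS DMSO and 31900 to 37300 CPM in LPS defactinib. Of 12 tested dendritic cell genes 3 were higher and 1 lower than at rest in LPS defactinib, beside 8.54% and 16.8% of all tested genes, and their summed level was 315 to 359 CPM at rest, 1440 to 1800 CPM in LPS DMSO and 523 to 1160 CPM in LPS defactinib. Of 12 tested neutrophil genes 4 were higher and 1 lower, or 3 and 1 without LPS defactinib replicate 3. On leaving out any single unstimulated library 2 were higher, and without LPS defactinib replicate 1 it was 7. Their summed level at rest, in LPS DMSO and in LPS defactinib was 254.8 to 266, 347 to 439 and 403 to 534 CPM, and their defining members Elane, Mpo, Prtn3 and Ly6g were under 1 CPM in every WT library. The 5 tested mast cell and basophil genes summed to 10.6 to 11.2 CPM at rest, 43.5 to 56.3 CPM in LPS DMSO and 13, 9.76 and 33.8 CPM in LPS defactinib, and Cpa3 and Mcpt1 were under 1 CPM in every WT library. The 4 tested genes of erythroid cells and megakaryocytes summed to 733 to 786 CPM at rest, 623 to 965 CPM in LPS DMSO and 888, 748 and 368 CPM in LPS defactinib, lowest in replicate 3. The 3 tested genes of T, B and NK cells summed to 1.08 to 7.61 CPM over the WT libraries, and the 6 of stroma and endothelium to 46.3 to 78.3 CPM. The part of these marker genes, of the mitochondrial share and of the share of the most abundant genes in the results was not tested. In such bulk RNA, fewer cells of a kind and less RNA per cell cannot be told apart. LPS defactinib replicate 3 stood apart from replicates 1 and 2, mainly in interferon-stimulated genes, and unstimulated replicate 3 stood apart for a few noncoding RNAs. Results that rest on either library are given with and without it.

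Transcripts of the kinases that defactinib inhibits were present in all groups. Ptk2b, encoding PYK2, was at 156, 159.6 and 173 CPM at rest and at 99.4, 97.8 and 119 CPM in LPS defactinib. The groups did not overlap, but the log2 fold change of -0.63 ± 0.10 (SE, n = 3 libraries a group) was within the threshold of 1 (edgeR quasi-likelihood test, adjusted p = 3.07e-04). Ptk2, encoding FAK, was at 24.1, 25.7 and 24.2 CPM at rest and at 26.8, 22.8 and 18.1 CPM in LPS defactinib, and the groups overlapped (log2 fold change -0.13 ± 0.14, adjusted p = 0.454, edgeR). Irf5, the transcription factor whose knockout the series also holds, was at 569, 592 and 630.3 CPM at rest, at 423, 461 and 426 CPM in LPS DMSO and at 202, 227 and 369.9 CPM in LPS defactinib. All LPS defactinib libraries were below all others. Irf5 fell by 1.17 ± 0.19 on the log2 scale from rest (edgeR, adjusted p = 4.64e-04), and without LPS defactinib replicate 1 the value was -1.0, just inside the threshold.

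Against the unstimulated cells, 1279 of 14977 tested genes were higher in LPS defactinib (8.54%) and 2516 were lower (16.8%), at an adjusted p under 0.05 and a log2 fold change beyond 1 in edgeR. LPS DMSO had the opposite balance, with 1826 genes higher (12.2%) and 1579 lower (10.5%). Tested directly against LPS DMSO, LPS defactinib had 1536 genes higher (10.3%) and 2956 lower (19.7%). All these comparisons share libraries, so their values are set side by side and no overlap between them is read as a result. With library size alone in place of TMM scaling, the median log2 fold change of all genes moved from 0.014 to -0.151 in LPS defactinib and from -0.013 to -0.385 in LPS DMSO against rest, and from 0.067 to 0.274 in LPS defactinib against LPS DMSO. The share of calls that were higher then went from 53.6% to 31.5% in LPS DMSO against rest and from 34.2% to 47.3% in LPS defactinib against LPS DMSO, while it went from 33.7% to 25.3% in LPS defactinib against rest. Of the tested genes, 13584 would also have passed the filter on low counts in the unstimulated libraries alone, of which 700 were higher and 2480 lower in LPS defactinib.

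**Figure D1:**
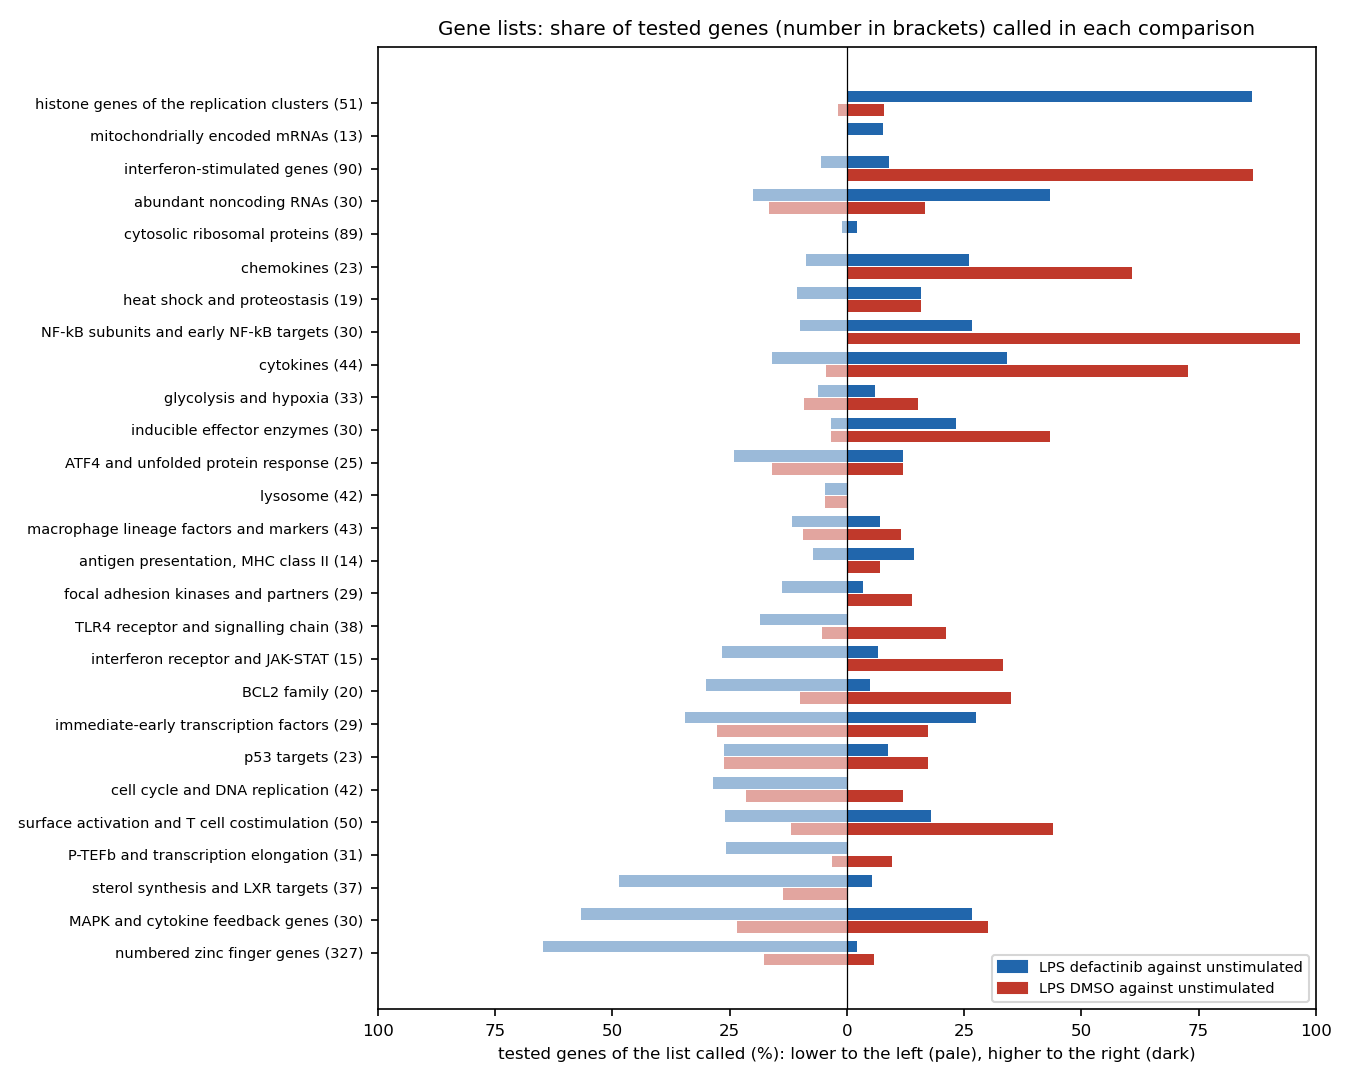
Share of the tested genes of each list (percent, x axis) called higher (right, dark) or lower (left, pale) than in unstimulated cells, in LPS defactinib (blue) and LPS DMSO (red), with the number of tested genes in brackets. Interferon-stimulated genes and NF-kB targets were called mostly in LPS DMSO, histone and zinc finger genes mostly in LPS defactinib.

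Of the 1826 genes that LPS raised in DMSO-treated cells, 453 (24.8%) were also higher than at rest under defactinib. A further 1131 (61.9%) were not called against rest, and 242 (13.3%) were lower than at rest. In the unstimulated libraries alone, 270 of the 453, 873 of the 1131 and 228 of the 242 would have passed the filter on low counts. Many of the 453 were thus tested only through the LPS groups, which favours a call as higher. Of all tested genes, 8.54% were called higher and 16.8% lower in LPS defactinib. Both comparisons use the same 3 unstimulated libraries, so these shares are not what an absence of any retained response would give. Of the 453 genes that stayed higher, 268 were not past the threshold against LPS DMSO in the direct test, which does not show that they were equal, 129 were lower than in LPS DMSO and 56 were higher than in it. Their median log2 fold change over rest was 2.48 in LPS DMSO and 2.08 in LPS defactinib. Of the 1131 genes not called against rest, 906 were lower than in LPS DMSO by the direct test, with a median of 1.90 over rest in LPS DMSO and 0.17 in LPS defactinib. Because the classes were cut on these fold changes, the medians describe them and test nothing.

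**Figure D2:**
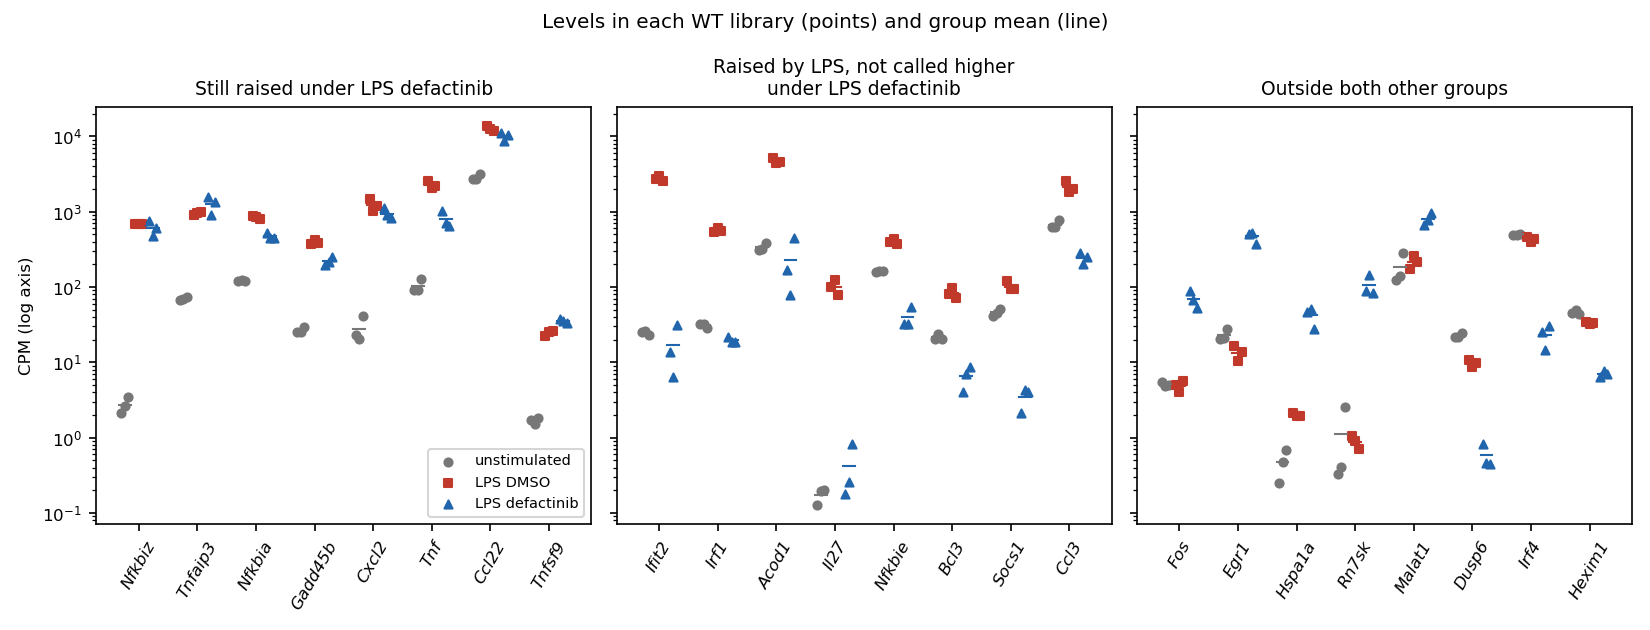
Levels of 24 genes in each of the 9 WT libraries (CPM, log axis; points are libraries and lines are group means), for unstimulated (grey), LPS DMSO (red) and LPS defactinib (blue) cells. Left, genes such as Nfkbiz and Tnfaip3 stayed near their LPS DMSO level under defactinib. Middle, LPS-raised genes such as Il27 and Socs1 were not called higher than at rest under defactinib, and Socs1 was below rest. Right, genes such as Egr1 and Dusp6 lay outside both other groups.

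Nfkbiz, Tnfaip3 and Nfkbia, whose products act on NF-kB, stayed higher than at rest under defactinib, while Nfkbie and Bcl3 of the same list fell below rest. Nfkbiz, encoding the nuclear regulator IkB-zeta (chr16:55811375-55838899, minus strand, mm10), was at 2.14, 2.60 and 3.44 CPM at rest and at 687, 694 and 691 CPM in LPS DMSO. It was at 744, 470.5 and 615 CPM in LPS defactinib. Every LPS defactinib library was far above rest and close to LPS DMSO. Nfkbiz rose by 7.81 ± 0.24 on the log2 scale over rest (edgeR, adjusted p = 2.21e-08) and differed by -0.18 ± 0.18 from LPS DMSO (adjusted p = 0.396). Tnfaip3, encoding the ubiquitin-editing enzyme A20 (chr10:19000910-19015657, minus strand, mm10), was at 66.8, 69.5 and 73.3 CPM at rest, 899.8, 953 and 974 CPM in LPS DMSO and 1553, 900.5 and 1356 CPM in LPS defactinib. The LPS groups overlapped, and the rise over rest was 4.18 ± 0.18 (edgeR, adjusted p = 8.09e-08) against 3.75 ± 0.18 in LPS DMSO. Nfkbia, encoding the inhibitor IkB-alpha, was at 119.9, 122 and 120.4 CPM at rest, 871, 843 and 806 CPM in LPS DMSO and 519, 440.1 and 445 CPM in LPS defactinib. Here defactinib libraries were all below LPS DMSO and all above rest, with a rise of 1.95 ± 0.09 (edgeR, adjusted p = 9.95e-08) against 2.80 ± 0.09 in LPS DMSO, and the direct difference of -0.84 ± 0.09 stayed within the threshold.

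The promoters of Tnfaip3, of Nfkbia and of the chemokine gene Cxcl2 hold the letters of kB sites, which NF-kB dimers bind, and are shown because these genes stayed high under defactinib. Each line gives the 200 bases before a start site in GRCm38.p6, the build of mm10, from RefSeq, with capitals on each kB match on either strand, written as GGG, any 3 bases and TTCC.
Cxcl2 (chr5:90903699-90903898, plus strand): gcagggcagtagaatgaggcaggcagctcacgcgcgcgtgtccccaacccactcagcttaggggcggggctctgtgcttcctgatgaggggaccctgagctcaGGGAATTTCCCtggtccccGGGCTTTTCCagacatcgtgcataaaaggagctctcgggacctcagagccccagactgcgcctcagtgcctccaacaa
Tnfaip3 (chr10:19015411-19015610, minus strand): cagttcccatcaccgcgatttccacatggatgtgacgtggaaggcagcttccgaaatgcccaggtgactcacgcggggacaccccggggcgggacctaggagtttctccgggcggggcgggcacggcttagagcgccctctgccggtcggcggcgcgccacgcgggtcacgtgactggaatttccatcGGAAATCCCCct
Nfkbia (chr12:55492648-55492847, minus strand): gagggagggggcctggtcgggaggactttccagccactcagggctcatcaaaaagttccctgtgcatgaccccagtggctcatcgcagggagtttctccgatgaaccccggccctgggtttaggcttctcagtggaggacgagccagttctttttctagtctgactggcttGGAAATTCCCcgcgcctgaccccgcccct
Windows of 250 bases before to 50 after a start were found by symbol for 25 of the 30 NF-kB genes and 15 of the 23 chemokine genes described next. Such a match stood in 29.4% of the 34 windows of the first list and in 33.3% of the 15 windows of the second, against 5.56% of all 32851 windows. It stood in 8.52% of the windows of LPS-raised genes that stayed higher under defactinib, in 7.85% of those of LPS-raised genes not called and in 8.50% of those that fell below rest. A match is a description of the window and no sign of binding.

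In the list of NF-kB subunits and early NF-kB targets, LPS raised 29 of 30 genes, and under defactinib 8 of 30 (26.7%) were higher and 3 lower than at rest. The background was 8.54% and 16.8%, and with library size alone the counts were 5 and 5. The median log2 fold change of the list was 1.86 in LPS DMSO and 0.38 in LPS defactinib, against medians near 0 over all tested genes. Without LPS defactinib replicate 3, 6 were higher and 4 lower than at rest, with a median of 0.23. Of the subunit genes, Rel was called, while Rela, Nfkb1, Nfkb2 and Relb were not. Rela, encoding the p65 subunit, was at 73.8, 77.3 and 83.1 CPM at rest, 172, 186 and 181 CPM in LPS DMSO and 52, 52.9 and 65.1 CPM in LPS defactinib. Its LPS defactinib libraries were all below rest, by a log2 difference of -0.46 ± 0.10 within the threshold. Nfkb1, encoding p105 and p50, was at 508, 366 and 709.6 CPM in LPS defactinib against 276, 283 and 289 CPM at rest, which gave 0.90 ± 0.19 and was not called, although it was without LPS defactinib replicate 2 (1.11). Nfkb2, encoding p100 and p52, was at 131, 140.2 and 146 CPM at rest and 195, 218 and 349 CPM in LPS defactinib, with 0.87 ± 0.18, called without LPS defactinib replicate 1 (1.03). Rel was called at 1.04 ± 0.19 (edgeR, adjusted p = 0.00112) but not without LPS defactinib replicate 1 (0.95) or replicate 3 (0.86), nor with library size alone (0.87).

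The members of the list that fell below rest were Nfkbie, Bcl3 and Gpr84. Nfkbie, encoding IkB-epsilon, was at 156, 162 and 161 CPM at rest, 399, 433 and 373 CPM in LPS DMSO and 32.7, 32.2 and 54.9 CPM in LPS defactinib, and Bcl3, an atypical IkB protein, was at 20.6, 23.5 and 20.6, 81.4, 98.2 and 72.4 and 4.03, 7.08 and 8.63 CPM. For both genes LPS DMSO was the highest group and LPS defactinib the lowest, with no overlap. Nfkbie fell by 2.00 ± 0.19 on the log2 scale from rest (edgeR, adjusted p = 9.09e-06), and Bcl3 fell by 1.72 ± 0.23 (edgeR, adjusted p = 1.32e-04). Gpr84, a receptor of medium-chain fatty acids, was called at -1.45 ± 0.44 (edgeR, adjusted p = 0.0215) with all libraries and at -2.29 without LPS defactinib replicate 3, but not without LPS defactinib replicate 1 (-1.20) or any single unstimulated library (-1.49, -1.48 and -1.40).

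The 8 members of the list that were called higher had log2 fold changes of 1.04 to 7.81, with a median of 1.69. Among other genes that stayed high, not all of them in this list, was Gadd45b, a stress and growth-arrest protein gene. Gadd45b was at 25.6, 25.2 and 29.7 CPM at rest, 377, 416 and 379 CPM in LPS DMSO and 198, 215 and 246 CPM in LPS defactinib. It rose by 3.03 ± 0.12 over rest (edgeR, adjusted p = 4.74e-08). Ccrl2, an atypical chemokine receptor gene, rose by 4.15 ± 0.19 (edgeR, adjusted p = 8.52e-08), from 5.03, 5.84 and 7.22 to 122, 81.9 and 117 CPM. Rgs1, a regulator of G protein signalling, rose by 2.46 ± 0.25 (edgeR, adjusted p = 2.43e-05), from 70.3, 67.3 and 80.4 to 569.5, 242 and 386 CPM, where LPS DMSO was at 544, 515 and 501 CPM. The surface adhesion gene Icam1 was at 325, 333 and 336 CPM at rest, 1253, 1508 and 1405 CPM in LPS DMSO and 227, 203 and 381 CPM in LPS defactinib, so its groups at rest and under defactinib overlapped (-0.29 ± 0.20, edgeR, adjusted p = 0.231).

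Chemokine genes also lay on both sides of rest. LPS raised 14 of 23 tested chemokine genes, and under defactinib 6 (26.1%) were higher and 2 (8.70%) lower than at rest, beside the 8.54% and 16.8% of all tested genes. Cxcl2, a neutrophil attractant, was at 23.1, 20.4 and 40.8 CPM at rest, 1486, 1019 and 1195 CPM in LPS DMSO and 1105, 892 and 813 CPM in LPS defactinib. It rose by 5.06 ± 0.30 over rest (edgeR, adjusted p = 6.11e-07), and the direct difference from LPS DMSO was -0.40 ± 0.25 (adjusted p = 0.189). Ccl22, a ligand of CCR4 on T cells, was at 2684, 2694 and 3125 CPM at rest, 13707, 12417 and 11835 CPM in LPS DMSO and 10920.0, 8673 and 10257 CPM in LPS defactinib. All 3 LPS defactinib libraries were well above rest and below LPS DMSO, and Ccl22 rose by 1.81 ± 0.11 (edgeR, adjusted p = 5.04e-07). Cxcl1 rose by 6.71 ± 0.20 (edgeR, adjusted p = 2.21e-08), from 0.508, 0.331 and 0.36 to 49, 42.4 and 34.9 CPM, and its direct log2 difference from LPS DMSO, at 148, 128 and 133 CPM, was -1.70 ± 0.14 (adjusted p = 3.51e-06).

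Cxcl10, an interferon-inducible ligand of CXCR3, lost most of its induction and stayed above rest. It was at 2.12, 2.51 and 1.62 CPM at rest, 1769.6, 1596 and 1308 CPM in LPS DMSO and 50.9, 39.6 and 26.7 CPM in LPS defactinib, a rise of 4.22 ± 0.26 (edgeR, adjusted p = 5.92e-07) against 9.54 ± 0.32 in LPS DMSO. Ccl3, an attractant of monocytes and T cells, fell below rest and was at 621, 625 and 772 CPM at rest, 2557, 1849.7 and 2022 CPM in LPS DMSO and 278, 203 and 253 CPM in LPS defactinib, with no overlap. Its log2 fold change from rest was -1.46 ± 0.16 (edgeR, adjusted p = 2.48e-05). Ccl4, encoded beside Ccl3, was at 218, 215 and 276 CPM at rest and 458, 304 and 257 CPM in LPS defactinib, and its 0.52 ± 0.21 was not called (edgeR, adjusted p = 0.0589). Ccl5 was at 31.8, 32.6 and 40.8 CPM at rest and 304, 274 and 2555 CPM in LPS defactinib, where replicate 3 was far above the others. Ccl5 rose by 4.90 ± 0.96 (edgeR, adjusted p = 0.00364) with that library and by 3.04 without it. Ccl7 was called lower at -1.01 ± 0.33 (edgeR, adjusted p = 0.0244) but not without LPS defactinib replicate 2 (-0.67) or without unstimulated replicate 1 or replicate 3 (-0.98 in both).

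Of 44 tested cytokine genes, LPS raised 32. Under defactinib 15 (34.1%) were higher and 7 (15.9%) lower than at rest, beside the background of 8.54% and 16.8%. Without LPS defactinib replicate 3 the counts were 11 and 8. Only 35 of the 44 passed the filter in the unstimulated libraries alone, of which 9 were higher and 7 lower. Il10 did not pass the filter on low counts and was not tested. Tnf, the early inflammatory cytokine, was at 91.2, 92.4 and 129 CPM at rest, 2541, 2082 and 2175 CPM in LPS DMSO and 1010.1, 700.3 and 648 CPM in LPS defactinib. All 3 groups were separate, and Tnf rose by 2.92 ± 0.20 over rest under defactinib (edgeR, adjusted p = 1.08e-06) against 4.44 ± 0.21 in LPS DMSO. Ifnb1, encoding interferon-beta, had 1 count in all at rest and was at 79.7, 52.9 and 66.3 CPM in LPS DMSO and 35.7, 21.1 and 6.27 CPM in LPS defactinib. The ratio of LPS defactinib to rest was 3590 (exact 95% interval 643 to 142000, for counting error only), and the direct log2 difference of Ifnb1 from LPS DMSO was -1.66 ± 0.52 (edgeR, adjusted p = 0.0252).

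Il12b, Il23a and Il6 rose over rest by much less than in LPS DMSO, and Il27 was not called. Il12b, the shared p40 subunit of IL-12 and IL-23, was at 2.78, 2.45 and 4.22 CPM at rest, 2079.7, 2680.4 and 2139.6 CPM in LPS DMSO and 61.5, 15.3 and 28 CPM in LPS defactinib. It rose by 3.48 ± 0.51 over rest (edgeR, adjusted p = 7.38e-04), by 2.79 without LPS defactinib replicate 1, against 9.52 ± 0.66 in LPS DMSO. Il23a, the p19 subunit of IL-23, was at 39.8, 28 and 24.7 CPM in LPS DMSO and 4.62, 1.54 and 1.73 CPM in LPS defactinib from 0.0544, 0.0165 and 0.04 CPM at rest. Its rise was 6.09 ± 0.68 (edgeR, adjusted p = 5.35e-05) and 5.39 without LPS defactinib replicate 1. Il6 was at 0.109, 0.0827 and 0.22 CPM at rest, 1065, 923 and 799.8 CPM in LPS DMSO and 3.63, 0.652 and 13.3 CPM in LPS defactinib. The LPS defactinib libraries differed widely among themselves, all far below LPS DMSO, and Il6 rose by 5.42 ± 1.20 (edgeR, adjusted p = 0.00649) with all of them and by 3.99 without replicate 3. Il27, a further member of the family, was at 0.127, 0.199 and 0.2 CPM at rest, 99.9, 125 and 78.6 CPM in LPS DMSO and 0.176, 0.256 and 0.827 CPM in LPS defactinib, where 1.21 ± 0.58 was not called (edgeR, adjusted p = 0.103) but was without LPS defactinib replicate 1 (1.6).

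Calls on Il1b and Il12a rested on LPS defactinib replicate 3. Il1b was at 59.5, 59.3 and 96.1 CPM at rest, 3613, 2808 and 2943 CPM in LPS DMSO and 190.2, 62.1 and 908 CPM in LPS defactinib. It was called higher at 2.43 ± 0.87 (edgeR, adjusted p = 0.0469) but not without replicate 3, where its value was 0.81, nor with any of the 3 unstimulated libraries left out (2.31 to 2.70), with library size alone (2.23) or with the replicate block (1.91). Il12a, the p35 subunit of IL-12, was at 0.0363, 0.0165 and 0.0799 CPM at rest and 0.22, 0.0466 and 4.06 CPM in LPS defactinib. Its 4.98 ± 1.72 (edgeR, adjusted p = 0.0402) became 1.62, not called, without replicate 3. Nor was it called with any single unstimulated library left out (4.56 to 5.63) or with the replicate block (4.46). Il1a was at 168, 46 and 329 CPM in LPS defactinib against 61.8, 62.1 and 96.3 CPM at rest and 3209, 2239.5 and 2515 CPM in LPS DMSO, and its 1.30 ± 0.61 was not called (edgeR, adjusted p = 0.109) but was without LPS defactinib replicate 2 (1.76). Il1rn, encoding the IL-1 receptor antagonist, was at 603, 591 and 694 CPM at rest and 1190.3, 939 and 1164 CPM in LPS defactinib, above rest in each library by a log2 difference of 0.80 ± 0.11 within the threshold.

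Cytokine genes named after their values were seen lay at both ends. Tnfsf9, the ligand of the T cell receptor 4-1BB, was at 1.71, 1.54 and 1.80 CPM at rest, 22.4, 25.1 and 25.9 CPM in LPS DMSO and 38.1, 35.6 and 33.5 CPM in LPS defactinib, so every LPS defactinib library was above every other. It rose by 4.41 ± 0.12 (edgeR, adjusted p = 2.21e-08), and the direct difference from LPS DMSO was 0.55 ± 0.10, within the threshold. Csf2, encoding GM-CSF, had no count at rest and was at 0.836, 0.816 and 0.401 CPM in LPS defactinib, at least 38.3-fold higher by a floor of 3 counts over the group. At the other end, Csf1, encoding M-CSF, was at 118, 119 and 168 CPM at rest, 533, 414 and 476 CPM in LPS DMSO and 46.4, 32.9 and 47.5 CPM in LPS defactinib, and Edn1, encoding endothelin-1, was at 59.1, 56.6 and 93.2, 442, 315 and 399 and 14.2, 5.69 and 15.1 CPM. Both genes were raised by LPS alone and fell below rest under defactinib, Csf1 by a log2 change of -1.68 ± 0.18 (edgeR, adjusted p = 2.71e-05) and Edn1 by -2.58 ± 0.37 (edgeR, adjusted p = 3.82e-04). Tnfsf15, a TNF family cytokine gene, was at 74, 77.5 and 92 CPM at rest, 3299, 3089.5 and 3246 CPM in LPS DMSO and 124, 33.6 and 98.5 CPM in LPS defactinib, where 0.07 ± 0.39 was not called and replicate 2 was below rest.

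In interferon-stimulated genes the LPS defactinib libraries differed among themselves. LPS raised 78 of 90 tested genes of the list. Under defactinib 8 of 90 (8.89%) were higher and 5 (5.56%) lower than at rest with all libraries, beside the 8.54% and 16.8% of all tested genes, and 3 higher and 34 lower without LPS defactinib replicate 3. The 5 lower genes, named after their values were seen, were Ifi207, Irgm2, Trim21, Slfn9 and Daxx. Leaving out LPS defactinib replicate 1 or 2 gave 21 or 28 higher, and leaving out an unstimulated library 2 to 4. DESeq2 called 18 higher, limma-voom 13 lower, and library size alone 5 higher and 9 lower. With that library the median log2 fold change from rest was 0.74 and without it -0.63, against 3.32 in LPS DMSO. Replicate 3 was the highest LPS defactinib library in 88 of the 90 genes and more than 2 times both others in 80. Replicates 1 and 2 were both below every unstimulated library in 51 genes and both above in 15. The median level of the 90 genes, as log2(CPM + 0.1), was 4.52, 4.56 and 4.67 in the unstimulated libraries, 7.97, 8.16 and 7.66 in LPS DMSO and 4.13, 3.61 and 6.31 in LPS defactinib.

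**Figure D3:**
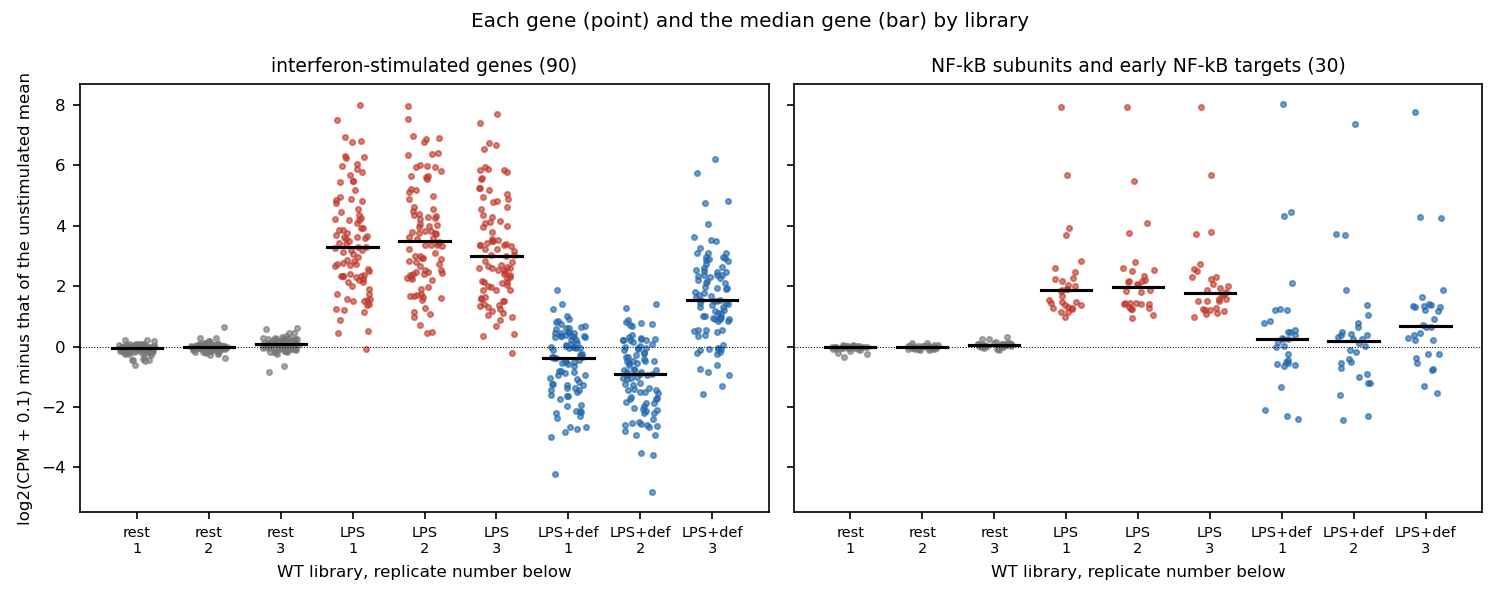
Level of each of 90 interferon-stimulated genes (left) and 30 NF-kB genes (right) in the 9 WT libraries, as log2(CPM + 0.1) minus that of the unstimulated mean (y axis), with bars at the median gene. Interferon-stimulated genes were near or below rest in LPS defactinib replicates 1 and 2 and above rest in replicate 3.

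Among the interferon-stimulated genes, Ifit1, Ifit2 and Rsad2 encode antiviral effectors. Ifit1 was at 14.5, 14 and 16.8 CPM at rest, 2738, 2822 and 2576 CPM in LPS DMSO and 5.48, 3.38 and 30.1 CPM in LPS defactinib. Replicates 1 and 2 were below rest and replicate 3 above it, all far below LPS DMSO, with a log2 fold change of -0.22 ± 0.72 (edgeR, adjusted p = 0.81) that became -1.77 and called without replicate 3. Ifit2 was at 25.1, 25.8 and 23.2 CPM at rest, 2718, 2979.9 and 2566 CPM in LPS DMSO and 13.7, 6.29 and 31.4 CPM in LPS defactinib, and went from -0.53 ± 0.47 to -1.31, called, without replicate 3. Rsad2 was at 22, 20.7 and 21.8 CPM at rest, 5559.5, 5391 and 4545 CPM in LPS DMSO and 16.8, 7.43 and 107 CPM in LPS defactinib, with 1.03 ± 0.85 against rest (edgeR, adjusted p = 0.338) and -0.82 without replicate 3. 

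The following genes of the list were named after their values were seen. Irf7, a transcription factor that amplifies interferon production, was at 15.8, 10.4 and 864 CPM in LPS defactinib, at 14.1, 14.4 and 19.4 CPM at rest and at 234, 260.0 and 167 CPM in LPS DMSO. Here replicate 3 exceeded every LPS DMSO library. Its 4.22 ± 1.62 was not called (edgeR, adjusted p = 0.0596) with all libraries, but was without LPS defactinib replicate 1 (4.78) or replicate 2 (4.79), and it was -0.29 without replicate 3. Irf1, another factor of the family, was at 31.8, 32 and 28.9 CPM at rest, 529, 604 and 547 CPM in LPS DMSO and 21.6, 18.5 and 18.5 CPM in LPS defactinib, where all 3 libraries were close and below rest (-0.66 ± 0.10, within the threshold). Isg15, a ubiquitin-like modifier, stayed above rest at 97.8, 65.4 and 229 CPM, from 23.5, 23.7 and 33.4 CPM, with a rise of 2.28 ± 0.43 (edgeR, adjusted p = 0.00228) and of 1.6 without replicate 3.

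The windows before Ifit1 and Isg15 are shown because they hold the interferon-stimulated response element (ISRE), to which interferon-activated STAT and IRF complexes bind, and because replicates 1 and 2 lay below rest for Ifit1 and above it for Isg15. Each line is the 200 bases before a start site in GRCm38.p6 from RefSeq, and capitals mark the ISRE core on either strand, written as GAAA, any 2 bases and GAAA.
Ifit1 (chr19:34640689-34640888, plus strand): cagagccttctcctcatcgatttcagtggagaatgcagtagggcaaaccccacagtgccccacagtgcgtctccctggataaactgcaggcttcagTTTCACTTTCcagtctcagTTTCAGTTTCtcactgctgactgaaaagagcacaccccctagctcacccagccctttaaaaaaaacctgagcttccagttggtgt
Isg15 (chr4:156200819-156201018, minus strand): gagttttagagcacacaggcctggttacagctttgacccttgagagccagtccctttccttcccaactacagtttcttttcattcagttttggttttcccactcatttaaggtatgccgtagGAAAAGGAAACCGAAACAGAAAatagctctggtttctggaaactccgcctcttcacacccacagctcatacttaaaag
Windows were found for 73 of the 90 interferon-stimulated genes. The core stood in 47.2% of their 89 windows, against 3.44% of all 32851 windows. Among LPS-raised genes it stood in 9.66% of the windows of genes that stayed higher under defactinib, in 8.05% of those not called and in 6.50% of those below rest.

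In the interferon receptor and JAK-STAT list, 1 of 15 tested genes was higher and 4 (26.7%) were lower under defactinib, beside the 8.54% and 16.8% of all tested genes. Irf4, a lineage factor of macrophages and dendritic cells grown with GM-CSF, was at 489.5, 496 and 507 CPM at rest, 467, 399 and 438 CPM in LPS DMSO and 25.5, 14.7 and 29.9 CPM in LPS defactinib. LPS DMSO lay just below rest, and under defactinib Irf4 fell by 4.41 ± 0.23 on the log2 scale (edgeR, adjusted p = 1.96e-07). Ifnar1, a chain of the interferon-beta receptor, was at 154, 154 and 147 CPM at rest and 57.1, 51.2 and 77.7 CPM in LPS defactinib, with -1.29 ± 0.14 (edgeR, adjusted p = 2.69e-05). Ifnar2, the other chain, was at 43.5, 44.8 and 42.9 CPM at rest and 29.6, 34.8 and 48.8 CPM in LPS defactinib and was not called (-0.21 ± 0.15). Ifngr2 and Ifngr1, the chains of the interferon-gamma receptor, changed by -1.63 ± 0.22 (edgeR, adjusted p = 1.38e-04) and -1.36 ± 0.16 (edgeR, adjusted p = 5.24e-05). Stat4 was the member that rose, at 2.83 ± 0.67 (edgeR, adjusted p = 0.00745) and at 1.59 without LPS defactinib replicate 3, with levels of 1.85, 1.70 and 1.94 CPM at rest and 6.43, 4.57 and 28.3 CPM in LPS defactinib.

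In the TLR4 list, 7 of 38 tested genes (18.4%) were lower than at rest under defactinib and none was higher, beside the background of 16.8% and 8.54%, so the share lower was near that of all genes. The members lower included adaptors of both arms, named after their values were seen. Ticam1 was at 30.4, 31 and 33 CPM at rest, 26, 27.3 and 29 CPM in LPS DMSO and 2.22, 3.68 and 5.22 CPM in LPS defactinib, a log2 fold change of -3.09 ± 0.24 (edgeR, adjusted p = 2.43e-06). Tirap changed by -2.79 ± 0.21 (edgeR, adjusted p = 2.24e-06) and Ticam2 by -2.36 ± 0.23 (edgeR, adjusted p = 1.37e-05), with LPS DMSO at -0.28 and -0.49, neither called. Tlr4 itself was at 96.8, 96 and 88.5 CPM at rest, 48.8, 39.8 and 45.6 CPM in LPS DMSO and 16.9, 9.48 and 29.4 CPM in LPS defactinib, lower than in both other groups, at -2.34 ± 0.33 from rest (edgeR, adjusted p = 2.97e-04). Cd14 was at 60.6, 59.1 and 62.2 CPM at rest, 455, 361 and 313 CPM in LPS DMSO and 103, 61.8 and 131 CPM in LPS defactinib, and its 0.70 ± 0.23 was not called. The others lower were Irf5, given above, and Tab1 and Ripk1.

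Beyond both other WT groups, 655 genes (4.37%) were higher and 1526 (10.2%) were lower in LPS defactinib. With a filter of 5 CPM in 3 libraries, which tests fewer genes, these counts were 164 and 1086. Immediate-early genes stood on both sides: 8 of 29 tested (27.6%) were higher and 10 (34.5%) lower than at rest, beside 8.54% and 16.8% of all tested genes, and 8 and 7 were outside both other groups. Fos, a subunit of the AP-1 transcription factor, was at 5.48, 4.83 and 5.0 CPM at rest, 4.96, 4.05 and 5.69 CPM in LPS DMSO and 87.6, 67.7 and 52.6 CPM in LPS defactinib. Egr1, a zinc finger factor induced by growth signals, was at 20.5, 21.1 and 27.6 CPM at rest, 16.4, 10.4 and 13.6 CPM in LPS DMSO and 509, 522 and 376 CPM in LPS defactinib. In LPS DMSO, Fos overlapped with rest and Egr1 was below it, and every LPS defactinib library was many times above every other WT library. Fos rose by 3.76 ± 0.20 (edgeR, adjusted p = 1.95e-07) and Egr1 rose by 4.35 ± 0.21 (edgeR, adjusted p = 1.27e-07). Jun, the partner of Fos in AP-1, was at 55.3, 55.9 and 51.2 CPM at rest, 39.3, 32.4 and 36.6 CPM in LPS DMSO and 242, 243 and 115 CPM in LPS defactinib and rose by 1.88 ± 0.24 (edgeR, adjusted p = 9.94e-05). Ier2 and Fosb rose by 1.90 ± 0.23 (edgeR, adjusted p = 6.28e-05) and 3.44 ± 0.37 (edgeR, adjusted p = 2.32e-05). Egr4 had 2 counts at rest and was at 4.49, 12.3 and 2.33 CPM in LPS defactinib, a ratio of 533 (exact 95% interval 147 to 4410, for counting error only). Promoter windows were found for 22 of the 29 genes of this list, some with more than 1 window. A CArG box, the site of serum response factor, stood in 5 (17.9%) of the 28 windows and in 1.63% of all windows. It stood in 2.45% of the windows of all genes higher than both other WT groups and in 1.37% of those lower than both. The list holds genes on both sides of rest, and the part of this site was not tested.

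Not all immediate-early genes moved up. Egr2 was at 230.0, 234 and 262 CPM at rest, 29.3, 20.3 and 29.6 CPM in LPS DMSO and 35.7, 26.9 and 29.1 CPM in LPS defactinib, and Myc was at 37.9, 39.5 and 40.4, 1.69, 1.76 and 2.10 and 2.53, 2.80 and 1.88 CPM. In both genes LPS lowered the level and the LPS groups overlapped, at -2.98 ± 0.17 (edgeR, adjusted p = 2.61e-07) and -4.03 ± 0.16 (edgeR, adjusted p = 4.95e-08) from rest. Fosl1, another AP-1 subunit, was at 5.55, 6.12 and 8.37 CPM at rest, 1.90, 1.76 and 2.78 CPM in LPS DMSO and 0.616, 0.326 and 0.176 CPM in LPS defactinib, and fell by 4.13 ± 0.37 (edgeR, adjusted p = 7.22e-06). Atf3, a repressor of cytokine genes, was at 341, 341 and 372 CPM at rest, 735, 608 and 732 CPM in LPS DMSO and 184, 112 and 144 CPM in LPS defactinib, and changed by -1.26 ± 0.16 (edgeR, adjusted p = 8.43e-05). The LPS-raised Nr4a3, an orphan nuclear receptor gene, was at 170.3, 169 and 172 CPM at rest, 1326, 1423 and 1401 CPM in LPS DMSO and 95.2, 72.9 and 112 CPM in LPS defactinib. It lay below rest in each library at -0.87 ± 0.13, called without LPS defactinib replicate 3 (-1.02) and with library size alone (-1.04).

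Feedback genes of MAP kinase and cytokine signalling were lower in 17 of 30 (56.7%) and higher in 8 (26.7%), beside the background of 16.8% and 8.54%. Dusp6, a phosphatase that inactivates ERK, was at 21.8, 22 and 24.2 CPM at rest, 10.6, 8.60 and 9.79 CPM in LPS DMSO and 0.836, 0.466 and 0.451 CPM in LPS defactinib. It fell by 5.26 ± 0.22 from rest (edgeR, adjusted p = 5.82e-08), with no overlap with either other group. Spry2, a Sprouty inhibitor of receptor kinase signalling, was at 4.03, 4.47 and 4.60 CPM at rest, 1.78, 1.32 and 1.98 CPM in LPS DMSO and 0.484, 0.746 and 0.1 CPM in LPS defactinib and fell by 3.28 ± 0.43 (edgeR, adjusted p = 1.10e-04). Socs1, an inhibitor of JAK-STAT signalling that LPS raised, was at 40.9, 45.1 and 51.7 CPM at rest, 118, 92.6 and 92.7 CPM in LPS DMSO and 2.16, 4.29 and 4.06 CPM in LPS defactinib, and fell by 3.72 ± 0.24 below rest (edgeR, adjusted p = 6.89e-07). Socs3, of the same family, was at 79.9, 82.4 and 90.3 CPM at rest, 583, 559 and 523 CPM in LPS DMSO and 217, 168 and 171 CPM in LPS defactinib, above rest at 1.14 ± 0.11 (edgeR, adjusted p = 1.42e-05), or 0.98 and not called with library size alone. Zfp36, encoding tristetraprolin, which marks cytokine mRNAs for decay, was at 63.3, 65.1 and 72.1 CPM at rest, 77.5, 66.7 and 65.2 CPM in LPS DMSO and 322, 322 and 238 CPM in LPS defactinib. LPS DMSO overlapped with rest, and under defactinib Zfp36 rose by 2.14 ± 0.13 (edgeR, adjusted p = 6.01e-07), while its relative Zfp36l2 fell by 3.73 ± 0.12 (edgeR, adjusted p = 2.21e-08), from 230.3, 235 and 236 to 15.7, 20.5 and 16.7 CPM.

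Noncoding RNAs were among the genes that rose most. Gm26917, annotated as a lincRNA with 1 exon (chr17:39843013-39846341, plus strand, mm10), was at 56.3, 61.2 and 138 CPM at rest, 129, 138 and 135 CPM in LPS DMSO and 21062, 40619 and 32916 CPM in LPS defactinib. Every LPS defactinib library was far above the highest other WT library, and Gm26917 rose by 8.53 ± 0.50 (edgeR, adjusted p = 2.43e-06). Gm42418, which starts just after it on the same chromosome and which RefSeq lists as a ribosomal RNA related sequence, was at 1601, 1954 and 12958 CPM at rest, 4708, 3927 and 5193 CPM in LPS DMSO and 15920.0, 17646 and 21501 CPM in LPS defactinib (1.74 ± 0.77, edgeR, adjusted p = 0.0915), with unstimulated replicate 3 above the other resting libraries. It was called without that library (3.36) and with the replicate block (2.26). Rn7sk, the small RNA that holds the elongation factor P-TEFb inactive (chr9:78175303-78175633, minus strand, mm10), was at 0.327, 0.414 and 2.58 CPM at rest, 1.04, 0.895 and 0.708 CPM in LPS DMSO and 87.5, 145 and 83.7 CPM in LPS defactinib. It rose by 6.61 ± 0.74 (edgeR, adjusted p = 1.83e-04), or by 8.13 without unstimulated replicate 3, which was above the other resting libraries. Malat1, a nuclear-retained long RNA, was at 124, 139 and 283 CPM at rest, 171, 259 and 215 CPM in LPS DMSO and 674, 772 and 962 CPM in LPS defactinib and rose by 2.14 ± 0.32 (edgeR, adjusted p = 4.24e-04), whereas its neighbour Neat1 fell by 1.21 ± 0.23 (edgeR, adjusted p = 0.00142) from 321, 328 and 455 to 162, 163 and 152 CPM. Mir155hg, the host transcript of miR-155, stayed above rest under defactinib (3.84 ± 0.39, edgeR, adjusted p = 5.49e-05). It was at 9.45, 9.99 and 13.6 CPM at rest, 136, 169 and 94.8 CPM in LPS DMSO and 179, 79.4 and 214 CPM in LPS defactinib, so the LPS groups overlapped.

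Spliceosomal and other small nuclear RNAs followed. The snRNA gene Gm23444 had no count at rest and was at 28.3, 25.4 and 21.1 CPM in LPS defactinib, at least 1380-fold higher by the floor of 3 counts over the group. Snord118, the U8 small nucleolar RNA (snoRNA), was at 16.7, 11.8 and 12.2 CPM, at least 755-fold higher. Its class did not rise as a whole. Of 28 tested snoRNA genes, 8 (28.6%) were higher and 8 (28.6%) lower, beside 8.54% and 16.8% of all tested genes. Of the 14 snoRNA genes that passed the filter at rest, 0 were higher and 6 lower. Rnu1a1, a U1 RNA gene, was at 0.0544, 0.0165 and 0.06 CPM at rest, 0.0677, 0.0994 and 0.293 CPM in LPS DMSO and 28.7, 32.3 and 16.2 CPM in LPS defactinib and rose by 9.16 ± 0.49 (edgeR, adjusted p = 2.12e-07). Of the 31 tested snRNA genes 27 were called higher, but 4 of the 31 passed the filter in the unstimulated libraries alone (1 higher and 2 lower), so most were tested because they were high under defactinib. Copies of U1 and other small RNA genes are near-identical, so their reads could be split among genes. In the list of abundant noncoding RNAs, 13 of 30 were higher and 6 lower, or 10 and 6 without LPS defactinib replicate 3, beside 8.54% and 16.8% of all tested genes. Of the 25 that passed at rest 9 were higher and 6 lower. The sample titles read mRNA-seq, but the sources used here do not state whether RNA was selected by its poly(A) tail.

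Histone genes of the replication clusters have mRNAs that end in a stem-loop and normally carry no poly(A) tail. Most of those tested were low in both other groups and higher in LPS defactinib. Hist1h3e (chr13:23561534-23562369, minus strand, mm10) was at 0.127, 0.116 and 0.12 CPM at rest, 0.384, 0.298 and 0.269 CPM in LPS DMSO and 18.5, 25.5 and 13.8 CPM in LPS defactinib, a rise of 7.29 ± 0.30 (edgeR, adjusted p = 6.46e-08). Hist1h2bg rose by 5.52 ± 0.29 (edgeR, adjusted p = 1.95e-07), from 0.49, 0.529 and 0.28 to 18.5, 26.7 and 15.2 CPM, and Hist1h4i rose by 3.25 ± 0.19 (edgeR, adjusted p = 3.31e-07), from 2.81, 2.32 and 1.88 to 21.1, 26 and 19.5 CPM. Of 69 listed genes in the count table, 51 were tested, 44 of these were higher and none lower, but only 14 passed the filter at rest, of which 8 were higher (median 1.39). Without LPS defactinib replicate 3, 45 of the 51 were higher. Other members were expressed at rest and not called. Hist1h1c, a linker histone gene, was at 48.6, 52.3 and 54.7 CPM at rest and 67, 93.3 and 88.3 CPM in LPS defactinib (0.68 ± 0.14), and Hist1h2bc at 23.7, 25.1 and 27.3 and 38.9, 52.8 and 48.6 CPM (0.88 ± 0.12), called without LPS defactinib replicate 1 (1.00). Of 42 tested cell cycle and DNA replication genes, none was higher than at rest and 12 (28.6%) were lower, beside 8.54% and 16.8% of all tested genes.

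**Figure D4:**
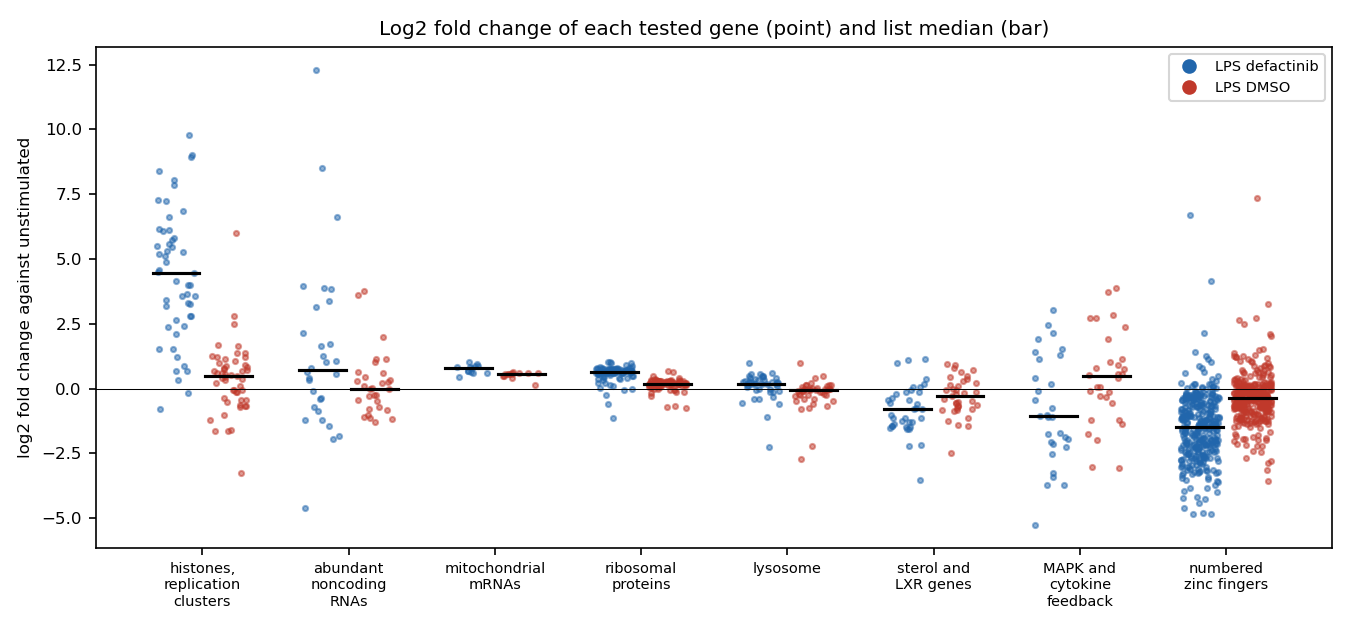
Log2 fold change against unstimulated cells (y axis) of each tested gene (points) with the list median (bars), in LPS defactinib (blue) and LPS DMSO (red), for 8 gene lists. Histone genes of the replication clusters lay mostly above 0 and numbered zinc finger genes mostly below 0 in LPS defactinib, whereas mitochondrial mRNAs, ribosomal protein and lysosome genes stayed close together.

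Hspa1a, an inducible HSP70 gene, was at 0.254, 0.48 and 0.68 CPM at rest, 2.14, 1.91 and 1.93 CPM in LPS DMSO and 47.1, 50.4 and 28.1 CPM in LPS defactinib, and Hspa1b, its near-identical copy, was at 0.835, 0.48 and 0.6, 4.24, 3.63 and 3.83 and 62.6, 62.6 and 42.1 CPM. Every LPS defactinib library was far above every LPS DMSO library for both genes, whose reads may be split between them. Hspa1a rose by 6.48 ± 0.33 (edgeR, adjusted p = 1.70e-07) and Hspa1b by 6.45 ± 0.24 (edgeR, adjusted p = 4.74e-08). Hspb1, encoding HSP27, had 1 count in all at rest and was at 8.41, 14 and 2.11 CPM in LPS defactinib, a ratio of 1380 (exact 95% interval 247 to 54400, for counting error only). These were the 3 of 19 tested heat shock and proteostasis genes that were higher (15.8%), and 2 (10.5%) were lower, Bag3 and Dnajb4, beside 8.54% and 16.8% of all tested genes. Constitutive Hspa8 was at 454, 453 and 466 CPM at rest and 761, 672 and 831 CPM in LPS defactinib (0.72 ± 0.10), above rest in each library and within the threshold. Bag3, a co-chaperone, was at 56.8, 58.4 and 60.2 CPM at rest and 20.7, 18.3 and 20.6 CPM in LPS defactinib and fell by 1.56 ± 0.09 (edgeR, adjusted p = 2.44e-07).

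Osm, Ptgir, Lilrb4a and Ciita were not called in LPS DMSO against rest and fell under defactinib. Osm, encoding the cytokine oncostatin M, was at 26.6, 29.3 and 34.5 CPM at rest, 29, 25.2 and 27.9 CPM in LPS DMSO and 1.45, 1.00 and 2.03 CPM in LPS defactinib. Ptgir, the prostacyclin receptor gene, was at 212, 210.4 and 216, 152, 134 and 172 and 9.16, 11.3 and 12.6 CPM, and Lilrb4a, an inhibitory receptor gene, was at 295, 315 and 408, 299, 422 and 233 and 25, 16 and 18.2 CPM. In each of them the LPS defactinib libraries lay far below the lowest other WT library. The log2 fold changes from rest were -4.34 ± 0.22 for Osm (edgeR, adjusted p = 1.53e-07), -4.27 ± 0.14 for Ptgir (edgeR, adjusted p = 3.06e-08) and -4.10 ± 0.26 for Lilrb4a (edgeR, adjusted p = 8.38e-07). Ciita, the regulator of MHC class II genes, was at 196, 211 and 178 CPM at rest, 191, 282 and 258 CPM in LPS DMSO and 39.6, 43.1 and 34.7 CPM in LPS defactinib and fell by 2.32 ± 0.15 (edgeR, adjusted p = 7.94e-07). Its target H2-Ab1 was at 2744, 2853 and 2549.8 CPM at rest and 1799.6, 2921 and 1538 CPM in LPS defactinib, and the groups overlapped (-0.38 ± 0.21, edgeR, adjusted p = 0.146). Of 14 tested genes of MHC class II presentation, 1 (7.14%, Ciita) was lower and 2 (14.3%, H2-Eb2 and H2-Oa) were higher, beside 16.8% and 8.54% of all tested genes. Without LPS defactinib replicate 2, 2 were lower. H2-Eb2, a class II beta chain gene, was at 1.83, 2.02 and 2.00 CPM at rest, 3.14, 7.21 and 6.10 CPM in LPS DMSO and 9.42, 13.8 and 7.35 CPM in LPS defactinib and rose by 2.39 ± 0.31 (edgeR, adjusted p = 1.12e-04). H2-Oa, a chain of the loading regulator H2-O, was at 6.28, 5.77 and 6.52, 9.59, 9.72 and 10.3 and 11.8, 15.8 and 13.3 CPM and rose by 1.14 ± 0.13 (edgeR, adjusted p = 4.00e-05), a call lost with library size alone (0.97). In both genes every LPS defactinib library was above every other WT library.

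Numbered zinc finger genes, many of which encode DNA-binding proteins, were mostly lower. Of 327 tested, 212 (64.8%) were lower than at rest under defactinib and 7 (2.14%) higher, beside the background of 16.8% and 8.54%. Of the 212, 156 were also lower than in LPS DMSO, where 10.2% of all tested genes were lower than both other WT groups. LPS alone lowered 58 and raised 19 of the 327, beside 10.5% and 12.2% of all tested genes. The median log2 fold change was -1.48 in LPS defactinib and -0.37 in LPS DMSO, and without LPS defactinib replicate 3 it was -1.62 with 219 lower. Of the 327, 319 passed the filter at rest, with 210 lower and 4 higher. Zfp322a was at 16.4, 17 and 12.9 CPM at rest, 12.4, 14.4 and 10.7 CPM in LPS DMSO and 1.36, 1.00 and 1.43 CPM in LPS defactinib, a log2 fold change of -3.60 ± 0.19 (edgeR, adjusted p = 2.05e-07). Other members moved within the threshold. Zfp106 was at 214, 220.5 and 209 CPM at rest and 304, 225 and 308 CPM in LPS defactinib and Zfp207 at 146, 144 and 129.5 and 114, 93.3 and 121 CPM, all above rest for Zfp106, all below for Zfp207 and neither called, and Zfp36, which binds RNA and is given above, rose. Outside the list, Zbtb6, a BTB zinc finger gene, was at 19.6, 18.4 and 15.9 CPM at rest, 21.2, 19.8 and 19 CPM in LPS DMSO and 1.30, 0.955 and 0.903 CPM in LPS defactinib (-4.09 ± 0.16, edgeR, adjusted p = 4.95e-08).

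Genes with few exons were called lower more often. Among protein-coding genes outside the histone clusters, 42.8% of 334 genes with 1 merged exon and 41.3% of 467 with 2 were lower than at rest under defactinib. The share was 27.6% of 2290 genes with 3 to 5 exons, 16.3% of 3700 with 6 to 10, 13.5% of 3764 with 11 to 20 and 10.1% of 1849 with 21 to 166. In LPS DMSO the shares lower ran from 16.2% and 17.8% to 9.03% over the same classes. Without the numbered zinc finger genes the defactinib shares were 42.8%, 39.7%, 24%, 14.9%, 13.4% and 10.1%. The share called higher was 14.4% for genes with 1 exon and 5.55% to 7.07% in the other classes. Genes are not independent replicates, so these shares are a description. Hps6 (1 exon), a component of organelle biogenesis, was at 22.5, 24.4 and 24.5 CPM at rest, 16, 14.8 and 15.8 CPM in LPS DMSO and 0.924, 1.10 and 1.30 CPM in LPS defactinib, and Exoc8 (1 exon), of the exocyst, was at 32.6, 33.1 and 29, 21.6, 21.2 and 22.5 and 1.45, 1.37 and 1.88 CPM.

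**Figure D5:**
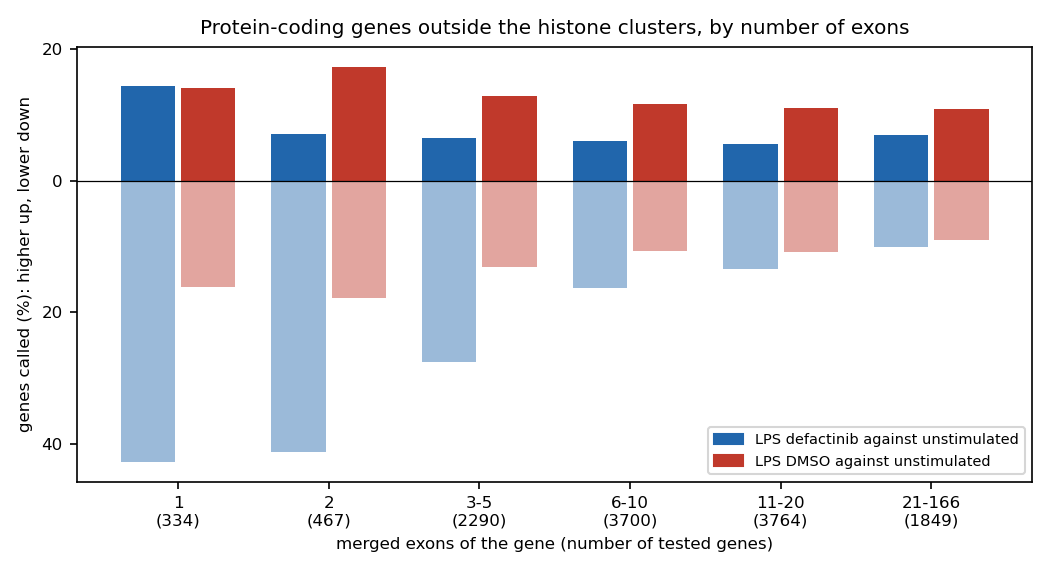
Share of tested protein-coding genes outside the histone clusters called higher (up, dark) or lower (down, pale) than in unstimulated cells (percent, y axis), by number of merged exons (x axis, number of genes in brackets), in LPS defactinib (blue) and LPS DMSO (red). In LPS defactinib the share lower went from 42.8% with 1 exon to 10.1% with 21 to 166 exons.

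Of 37 tested genes of sterol synthesis and LXR targets, 18 (48.6%) were lower and 2 (5.41%, Nr1h3 and Apoe) higher than at rest under defactinib, beside 16.8% and 8.54% of all tested genes, with a median of -0.79 against -0.29 in LPS DMSO. Nr1h3, the LXR-alpha gene, was close to the threshold at 1.10 and was not called without LPS defactinib replicate 2 (0.91) or with library size alone (0.93). Hmgcs1, an early enzyme of the pathway named after its values were seen, was at 254, 252 and 251 CPM at rest, 189, 220.3 and 237 CPM in LPS DMSO and 24.6, 22.2 and 18.6 CPM in LPS defactinib. It fell by 3.53 ± 0.13 (edgeR, adjusted p = 4.74e-08) where LPS alone gave -0.23 ± 0.12. Sqle, encoding squalene epoxidase and also chosen after its values were seen, was at 169, 165 and 168 CPM at rest, 78.8, 94.2 and 107 CPM in LPS DMSO and 43.3, 41.1 and 23.6 CPM in LPS defactinib and had a log2 fold change of -2.22 ± 0.21 (edgeR, adjusted p = 9.89e-06). Srebf2, encoding the factor that drives these genes, was at 310.0, 316 and 329 CPM at rest and 203, 239 and 186 CPM in LPS defactinib, below rest in each library by -0.61 ± 0.11, within the threshold. Scd2, a fatty acid desaturase gene, was at 841, 836 and 784 CPM at rest, 142, 124 and 171 CPM in LPS DMSO and 421, 386 and 236 CPM in LPS defactinib, between the other groups, with a direct difference from LPS DMSO of 1.25 ± 0.20 (edgeR, adjusted p = 2.98e-04).

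Of 31 tested P-TEFb and elongation genes, 8 (25.8%) were lower and none higher under defactinib, beside the 16.8% and 8.54% of all tested genes. Hexim1, the protein partner of Rn7sk in holding P-TEFb inactive, was at 44.6, 49 and 43.5 CPM at rest, 34.7, 32.2 and 33.6 CPM in LPS DMSO and 6.36, 7.67 and 7.02 CPM in LPS defactinib, and fell by 2.70 ± 0.11 (edgeR, adjusted p = 4.92e-08). Cdk9, the kinase of P-TEFb, was at 109, 111 and 115 CPM at rest and 58.8, 59.8 and 61.8 CPM in LPS defactinib, at -0.89 ± 0.08, within the threshold except with library size alone (-1.06). Of 20 tested BCL2 family genes, 6 were lower and 1, Bcl2l14, higher, against the same background. Bcl2l14 was called at 1.41 ± 0.45 (edgeR, adjusted p = 0.0213) but not without LPS defactinib replicate 3 (0.63) or unstimulated replicate 2 (1.24) or 3 (1.39). Mcl1, a short-lived survival protein gene, was at 451, 446 and 443 CPM at rest, 503, 488 and 513 CPM in LPS DMSO and 153, 126 and 182 CPM in LPS defactinib (-1.54 ± 0.12, edgeR, adjusted p = 2.82e-06). Bcl2l1, encoding BCL-XL, was raised by LPS and below rest under defactinib, at 110.2, 109 and 128 CPM at rest, 591, 700.1 and 710.1 CPM in LPS DMSO and 44.4, 37.4 and 55.9 CPM in LPS defactinib (-1.34 ± 0.15, edgeR, adjusted p = 2.87e-05).

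Of 30 tested effector enzymes and proteins of the activated macrophage, LPS raised 13, and 7 (23.3%) were higher and 1 lower under defactinib, beside 8.54% and 16.8% of all tested genes, or 4 and 2 without LPS defactinib replicate 3, and 3 were higher on leaving out any single unstimulated library. Ptgs2, the inducible cyclooxygenase, was at 0.962, 0.943 and 1.06 CPM at rest, 732, 664 and 535 CPM in LPS DMSO and 74.6, 22 and 211 CPM in LPS defactinib. It rose by 6.69 ± 0.89 (edgeR, adjusted p = 5.20e-04), or by 5.61 without LPS defactinib replicate 3. Acod1, the enzyme of itaconate synthesis, was at 309, 317 and 382 CPM at rest, 5076, 4446 and 4566 CPM in LPS DMSO and 168, 77.5 and 441 CPM in LPS defactinib, and its -0.56 ± 0.53 was called without replicate 3 (-1.46). Nos2, the inducible nitric oxide synthase, was at 1.27, 1.03 and 1.14 CPM at rest, 341, 374 and 269.5 CPM in LPS DMSO and 1.23, 0.676 and 20.4 CPM in LPS defactinib, where replicates 1 and 2 were near rest and 2.69 ± 1.19 was not called (edgeR, adjusted p = 0.0913) unless one of them was left out (3.20 and 3.23), and it was -0.25 without replicate 3. Ch25h, the cholesterol 25-hydroxylase gene, was at 10.9, 12.4 and 19.3 CPM at rest, 117, 111 and 144 CPM in LPS DMSO and 2.91, 3.64 and 8.27 CPM in LPS defactinib, and was lower than rest at -1.53 ± 0.38 (edgeR, adjusted p = 0.00818), or -2.12 without replicate 3.

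Of 50 tested genes of surface activation and T cell costimulation, 9 (18%) were higher and 13 (26%) lower than at rest under defactinib, beside 8.54% and 16.8% of all tested genes, or 4 and 17 without LPS defactinib replicate 3, and 5 were higher without unstimulated replicate 2. The costimulatory gene Cd86, chosen after its values were seen, was at 67.6, 66.3 and 71.6 CPM at rest, 345, 403 and 330.2 CPM in LPS DMSO and 181, 142 and 350.3 CPM in LPS defactinib and rose by 1.71 ± 0.28 (edgeR, adjusted p = 6.57e-04). Cd40, chosen likewise, was at 20.3, 21.1 and 20.9 CPM at rest, 634, 855 and 655 CPM in LPS DMSO and 31.2, 35.4 and 128 CPM in LPS defactinib, called at 1.64 ± 0.52 (edgeR, adjusted p = 0.0289) but not without replicate 3 (0.68), nor without any single unstimulated library (1.62 to 1.65) or with the replicate block (1.43). Ppp1r15a, which restores translation after stress, was at 20.1, 20.2 and 22 CPM at rest, 118, 129 and 131 CPM in LPS DMSO and 262, 209.9 and 193 CPM in LPS defactinib and rose by 3.42 ± 0.13 (edgeR, adjusted p = 4.74e-08). In the ATF4 and unfolded protein response list as a whole, 3 of 25 were higher and 6 (24%) lower, against the same background, and Atf4 itself was at 182, 186 and 195 CPM at rest and 153, 151 and 146 CPM in LPS defactinib (-0.32 ± 0.08, within the threshold).

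Of 43 tested macrophage lineage factors and markers, 3 (6.98%) were higher and 5 (11.6%) lower under defactinib, near the 8.54% and 16.8% of all tested genes, and of 42 lysosome genes 2 (4.76%, Tfeb and Sgsh) were lower and none higher. Without LPS defactinib replicate 3 or unstimulated replicate 2, 1 lysosome gene was lower, and without LPS defactinib replicate 1 or 2, 1 was higher. Named after their values were seen, the macrophage genes higher included Adgre1 and Apoe, and those lower were Cebpa, Cebpb, Maf, Runx1 and Bach1. Adgre1, a surface marker of macrophages, was at 72.9, 72.7 and 68.1 CPM at rest, 80.7, 96.8 and 96.5 CPM in LPS DMSO and 125, 145 and 335 CPM in LPS defactinib (1.5 ± 0.32, edgeR, adjusted p = 0.0037, and 0.92, within the threshold, without LPS defactinib replicate 3). Lyz2, encoding lysozyme, was at 8199.7, 8034 and 7846 CPM at rest and 10554, 13017 and 8486 CPM in LPS defactinib, and Lgals3, encoding galectin-3, at 5058, 5083 and 5468 and 5346, 6585 and 4417 CPM, neither of them called. Of 29 tested genes of focal adhesion kinases and their partners, 1 was higher (Yes1) and 4 (13.8%) lower (Crk, Crkl, Nedd9 and Itga5), beside 8.54% and 16.8% of all tested genes, or 1 and 6 without LPS defactinib replicate 3. Crk, an adaptor of focal adhesion signalling, was at 126, 123 and 116 CPM at rest, 135, 141 and 139 CPM in LPS DMSO and 25.2, 21.7 and 29.8 CPM in LPS defactinib and fell by 2.25 ± 0.12 (edgeR, adjusted p = 1.85e-07). Of 89 tested genes of cytosolic ribosomal proteins, 2 (2.25%) were higher (Rpl24 and Rpl22l1) and 1 (1.12%) lower (Rpl10a), beside 8.54% and 16.8% of all tested genes. Most moved within the threshold, and their median log2 fold change was 0.66 in LPS defactinib and 0.19 in LPS DMSO. Over all tested genes it was 0.014 in LPS defactinib. Without LPS defactinib replicate 3 the ribosomal protein genes had a median of 0.79, with 5 higher and 1 lower. Without LPS defactinib replicate 2 or unstimulated replicate 2, 1 was higher.

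Of the 1579 genes that LPS lowered, 744 (47.1%) were also lower than at rest under defactinib, 812 (51.4%) were not called and 23 (1.46%) were higher, where 16.8% of all tested genes were lower and 8.54% higher. These comparisons again share the unstimulated libraries. Of the 744, 137 were lower than in LPS DMSO and 73 higher by the direct test. Sall2, a zinc finger factor gene, was at 27, 25 and 24.1 CPM at rest, 1.11, 0.671 and 0.854 CPM in LPS DMSO and 0.55, 0.233 and 0.426 CPM in LPS defactinib, with a log2 fold change from rest of -5.96 ± 0.26 (edgeR, adjusted p = 7.43e-08). Klf4, a macrophage transcription factor gene, was at 45.6, 49.8 and 45.8 CPM at rest, 6.12, 5.12 and 6.08 CPM in LPS DMSO and 3.61, 5.17 and 5.14 CPM in LPS defactinib, so the LPS groups overlapped. Id3, an inhibitor of helix-loop-helix factors, was at 5.19, 5.96 and 4.88 CPM at rest, 0.0903, 0.0745 and 0.0488 CPM in LPS DMSO and 4.12, 6.11 and 2.96 CPM in LPS defactinib, overlapping with rest (-0.28 ± 0.24, edgeR, adjusted p = 0.342). Of the 11572 genes that LPS alone did not change by these thresholds, 803 (6.94%) were higher and 1530 (13.2%) lower than at rest in LPS defactinib. In the unstimulated libraries alone, 414 of those higher and 1508 of those lower would have passed the filter on low counts.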

How the data were processed

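Per the study's methods, WT BMDM RNA was sequenced as 150-base read pairs, aligned with STAR to mm10 and counted per gene on the reverse strand with featureCounts 1.6.3 (version from the submitters' processing notes). The authors deposited raw counts per gene, not normalized, in 1 table of 50600 genes. Groups came from the sample labels, with 3 libraries a group and 0 columns of another series.

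Counts of the 9 WT libraries were filtered with filterByExpr, scaled by TMM and tested with edgeR 4.0.16 (quasi-likelihood F test, robust, R 4.3.3), with Benjamini-Hochberg adjustment over all tested genes. A gene was called at an adjusted p under 0.05 and a log2 fold change beyond 1. SE is the log2 fold change divided by the root of F. Intervals and floors cover counting error only, and read pairs carry no molecular identifiers. The 3 groups share 1 estimate of spread. Alternatives were other scalings, filters and thresholds, DESeq2 1.42.0, limma-voom (limma 3.58.1), a replicate block and each library left out.

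The genes named were the inhibited kinases, Irf5 and 11 cytokines of the study, 12 rises and 12 falls of the largest size among called genes (mean of at least 8 CPM, no overlap between groups), the top 10 rises in LPS DMSO, the top 10 rises and top 10 falls among genes beyond both other groups, and members of the lists (any member up to 35 tested, otherwise the 3 with the highest CPM). Others are marked as chosen after their values were seen. The comparison and the lists were chosen with earlier results of these data known. Promoters came from RefSeq for GRCm38.p6. A few genes are not reported here.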

Additional observations from a re-analysis of the deposited data

How the results depend on the processing

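With a filter of 5 CPM in 3 libraries, 460 genes were higher in LPS defactinib, 1093 higher and 976 lower in LPS DMSO, and 691 higher in LPS defactinib than in LPS DMSO. Under it 213 LPS-raised genes stayed higher, 476 LPS-lowered genes stayed lower and 164 genes were higher than both other groups, where fewer genes were tested. Within 1.5 times of the main counts were those lower, at 1733 in LPS defactinib, 2012 between the LPS groups and 1086 below both other groups. With no fold change threshold the counts higher and lower were 3815 and 4513 in LPS defactinib, 3450 and 3686 in LPS DMSO, and 4443 and 4683 between the LPS groups, with 1185 LPS-raised and 2016 LPS-lowered genes kept and 2384 higher and 2925 lower than both other groups. With the threshold tested inside the model (glmTreat) they were 653 and 1594, and 1092 and 709, with 672 higher and 2036 lower between the LPS groups, 160 (14.7%) LPS-raised and 315 LPS-lowered genes kept, and 334 higher and 901 lower than both other groups. Library size alone gave 2864 genes lower in LPS DMSO and 1234 LPS-lowered genes kept. With protein-coding genes outside the histone clusters alone, chosen after seeing the data, 407 genes were higher than both other groups.

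Leaving out each library in turn gave 1166 to 1408 genes higher and 2408 to 2784 lower in LPS defactinib, 1699 to 1977 higher and 1464 to 1658 lower in LPS DMSO, and 1489 to 1657 higher and 2828 to 3317 lower between the LPS groups. It gave 341 to 543 (19.7% to 28.3%) LPS-raised and 677 to 779 LPS-lowered genes kept, and 655 to 709 higher and 1419 to 1762 lower than both other groups. Kdr, not called at 0.29, ranged from -1.25 without LPS defactinib replicate 3 to 0.75 without replicate 1 and was the 1 named gene that changed sign on being called. DESeq2 gave 1375 higher and 2437 lower in LPS defactinib, and limma-voom 1176 and 2605.

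Same-numbered libraries did not deviate together, with correlations of their deviations from the group means between -0.12 and 0.08. A replicate block gave 1170 genes higher and 2522 lower in LPS defactinib, 401 LPS-raised genes kept (22.2%), and 615 higher and 1513 lower than both other groups. Depth limits genes with few or no counts at rest, for which bounds or intervals are given.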
